A study of Mus musculus with 64 samples.

Results

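Cardiac fibroblasts of adult mice were compared 3 days after myocardial infarction (MI) and 3 days after a sham operation. The comparison holds the 8 libraries that the labels give as fibroblasts of mice operated at postnatal day 56 (P56), 4 per operation, out of 64 libraries of 4 cell populations and 2 ages at surgery. All 20637 genes of the deposited table were considered, and 15729 of them reached 1 CPM (the deposited unit, reads scaled by an effective library size) in at least 4 of the 16 fibroblast libraries and were tested. In the MI group the left descending coronary artery of male CD1 mice was tied off permanently at 8 weeks of age, and the sham group went through the same surgery without MI. The whole ventricles were digested with Liberase through a Langendorff perfusion, and cells positive for CD90 and negative for CD45 and CD31 were sorted from the non-myocyte fraction. A library therefore mixes fibroblasts of the infarct with those of the surviving ventricle, and it holds no fibroblasts without CD90. The comparison groups at P1 are CD1 pups with the same 2 operations on postnatal day 1, taken 3 days later, whose ventricles were pooled and digested by stirring, so age, dissociation and pooling cannot be told apart between the ages. The labels do not say whether the 4 libraries of a group came from separate animals, so the p-values measure the spread between libraries.

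Fibroblasts are the cells that make and maintain the collagen network of the heart. After an infarct, resting fibroblasts leave the quiescent state, divide, take up contractile proteins of smooth muscle and secrete the matrix that replaces dead muscle; cells in this state are called myofibroblasts. TGF-beta, mechanical load and inflammatory cytokines are the best known inducers of the change, and the resting state is marked by transcription factors such as Tcf21 and by abundant transcripts such as those of decorin and gelsolin.

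The 8 libraries held 13.9 to 24.7 M recovered reads, so the level that 3 reads represent was 0.108 to 0.194 CPM, which covers counting error only. The label was checked against markers of the cell type: the summed level of 14 fibroblast markers was 65604 to 82272 CPM in sham and 63434 to 83401 CPM after MI, against 7353 CPM in MI leukocytes and 1345 CPM in sham cardiomyocytes of the same age. Between MI and sham 4 of the 14 rose and 6 fell (9 without MI replicate 2), beside 24.8% and 25.2% of all tested genes. Vim (vimentin) rose from 1194 ± 213 CPM to 2859 ± 430.1 CPM, and Dcn (decorin) fell from 13176 ± 1217 CPM to 5770.4 ± 1555 CPM. The similar sums held larger shifts in both directions. Col3a1 rose from 10873 ± 2184 CPM to 31665 ± 4893 CPM, and Gsn (gelsolin) fell from 36266 ± 2068 CPM to 10243 ± 4132 CPM. Among the sort's antigens, Ptprc (CD45) was 2.37 ± 1.16 CPM in sham and 2.66 ± 1.05 CPM after MI (mean ± SD, n = 4, as in all such values here), and Pecam1 (CD31) was 24.0 ± 13.2 CPM and 35.0 ± 15.2 CPM. Thy1 (CD90) stood at 67.6 ± 19.6 CPM in sham and 87.3 ± 14.6 CPM after MI (log2 difference 0.40, SE 0.17, adjusted p = 0.069). Sham replicates 1 and 3 carried 4.45% and 3.86% of reads on 18S ribosomal RNA against 0.0216 to 0.125% in the other 6 libraries. MI replicate 2 stood apart from the other MI libraries. On the first principal component, which took 75.8% of the variance, it lay at 15.5, with MI replicates 1, 3 and 4 at 57.2 to 63.6 and the sham libraries at -54.5 to -42.6. Over the 2460 genes that MI replicates 1, 3 and 4 moved by 2-fold or more, replicate 2 showed a median of 54.6% of their change (quartiles 39.0% and 68.5%), and for 2260 of these genes (91.9%) it lay between the sham mean and the mean of the other 3. All MI groups below include replicate 2, and its part in the spread of the MI group is given for some of the counts that depend on it. In a fit without it, 7639 of the 7868 calls (97.1%) stayed in the same direction, and in a fit without the 2 sham libraries rich in 18S 5760 (73.2%) did.

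**Figure D1:**
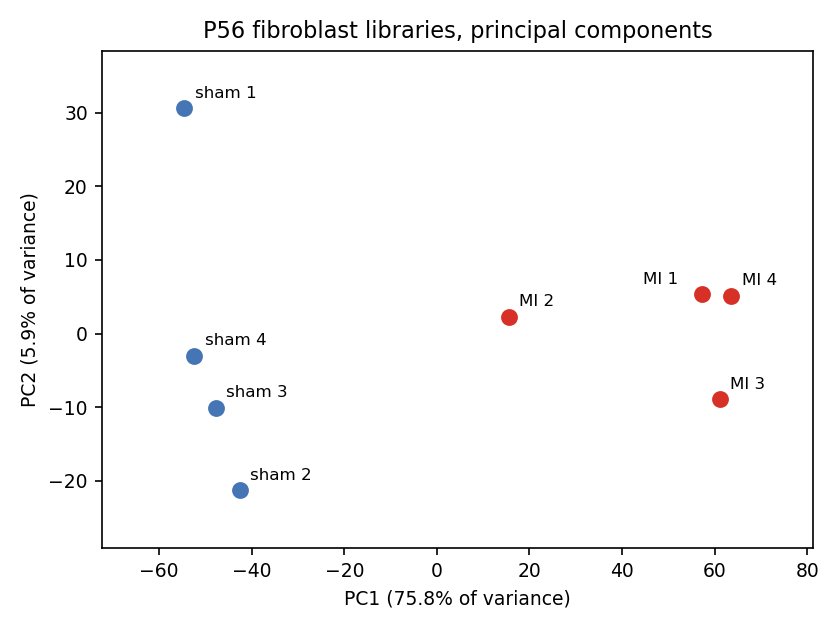
Principal components 1 and 2 of log2(CPM + 0.5) over the 15729 tested genes, one point per P56 fibroblast library (blue, sham; red, MI). The 4 sham libraries lie on the left, MI replicates 1, 3 and 4 on the right, and MI replicate 2 in between at 15.5 on the first component.

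Markers of other cell types moved between the groups as well. The counts of markers that rose or fell stand beside 24.8% of all tested genes that rose and 25.2% that fell. Of 14 cardiomyocyte markers 13 fell and none rose, and their summed level was 2834 to 5988 CPM in sham and 246 to 1054 CPM after MI, with no overlap; Myh6, the cardiac myosin heavy chain, went from 634 ± 211 CPM to 92.7 ± 49.1 CPM. In sorted sham cardiomyocytes the same sum was 194467 CPM. Leukocyte markers summed to 6.31 to 15.4 CPM in sham and 11.9 to 29.1 CPM after MI, and 4 of 8 tested rose (Cd53, Lcp1, Itgb2 and Tyrobp; 2 without every fibroblast library of over 1% 18S), while MI leukocytes held 5198 CPM. The summed leukocyte markers overlapped between the groups. Monocyte and macrophage markers overlapped too, at 26.4 to 67.3 CPM in sham and 36.9 to 88.8 CPM after MI against 11888 CPM in MI leukocytes. Of 12 neutrophil markers, including S100a8, S100a9 and Ly6g, only Lcn2 was high enough to be tested, and it rose from 1.10 ± 0.546 CPM to 19.9 ± 12.1 CPM. Endothelial markers summed to 673 to 912 CPM in sham and 403 to 715 CPM after MI. Of these 14 markers 1 rose, 1 fell (2 without MI replicate 2) and 12 were not called, with a median log2 difference of 0.12. Among the MI libraries, replicates 2 and 3 were the highest in leukocyte and in monocyte markers. The 7 epicardial markers summed to 7.14 to 26.8 CPM in sham and 33.2 to 62.6 CPM after MI and all 7 rose. In libraries made from sorted cells, fewer cells of a type and less RNA per cell cannot be told apart, for these markers and for every gene below.

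**Figure D2:**
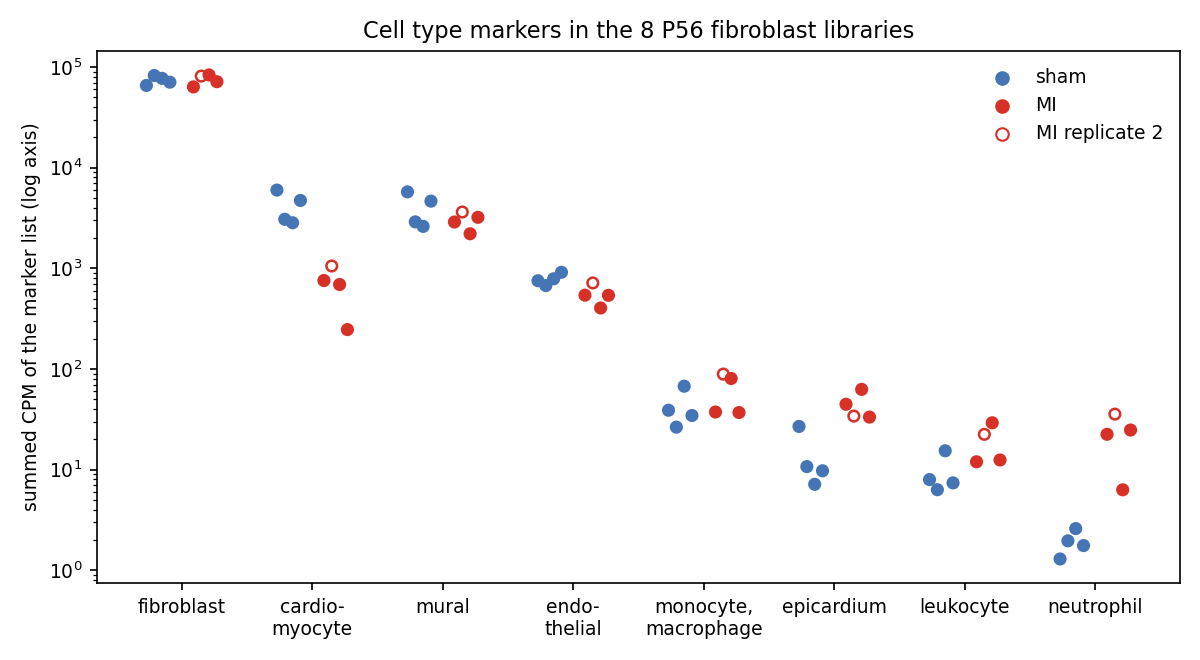
Summed CPM of 8 marker lists (log axis) in each P56 fibroblast library, sham in blue and MI in red, with MI replicate 2 as an open circle. The summed level of fibroblast markers, whose members moved in both directions, overlaps between the groups. Cardiomyocyte markers are lower in all MI libraries, and leukocyte markers stay at or below 29.1 CPM in every library.

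Infarction moved a large part of the transcriptome. By limma with Benjamini-Hochberg adjustment, 7868 of the 15729 tested genes (50.0%) differed at an adjusted p under 0.05, 3907 (24.8%) higher and 3961 (25.2%) lower after MI, and the median log2 difference of all tested genes was -0.03. Each group of genes below is read against these shares. The lists and their members were chosen with earlier results of these data known. The changes were asymmetric in size. A rise of 2-fold or more was seen for 1129 of the called genes and a fall of that size for 745, while 175 rose and 0 fell by 8-fold or more. Log2 differences are on the scale of log2(CPM + 0.5), which understates the change of genes with low levels. In 6850 genes (43.6%) the 2 groups' libraries did not overlap.

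The largest increases, among called genes of at least 5 CPM with no overlap between groups, were Spp1, Cthrc1, Tnc, Wisp1, Kif26b, Il6, Hist1h1b, Col11a1, Mki67 and Top2a, with log2 differences from 8.13 down to 5.46. In 4 of these 10 the mean in MI leukocytes was above that in MI fibroblasts: Spp1 (4728 against 255 CPM), Mki67 (338 against 289.9 CPM), Top2a (209 against 201.3 CPM) and Hist1h1b (70.0 against 60.1 CPM). The same held for 444 of the 1129 genes higher by 2-fold or more. The share over all tested genes was not counted, so these counts have no background to be read against. The part of leukocytes in these increases was not tested. Cthrc1, a secreted protein with a collagen-like repeat, was near the detection floor in sham: its levels were 0.0646, 0.130, 0.518 and 0.0428 CPM in the sham libraries and 87.8, 66.7, 204 and 129 CPM in the MI libraries. Cthrc1 rose by 7.39 on the log2 scale (SE 0.26, adjusted p = 1.5e-11), the smallest adjusted p of all genes. Wisp1 (Ccn4), a matricellular target of Wnt signalling, was at 0.775, 0.913, 1.04 and 0.985 CPM in the sham libraries and 106, 60.6, 254 and 139 CPM in the MI libraries. Wisp1 rose by 6.44 on the log2 scale (SE 0.28, adjusted p = 1.6e-10). Kif26b, an atypical kinesin linked to cell adhesion and polarity, rose from 0.672 ± 0.344 CPM to 91.7 ± 54.4 CPM. MI replicate 2 was the lowest MI library for Cthrc1 and Wisp1, and replicate 3 the highest. Spp1 (osteopontin) had the largest difference, from 0.250 ± 0.259 CPM to 255 ± 179 CPM, but its mean in MI leukocytes of the same age was 4728 CPM. In the same libraries 4 of 8 tested leukocyte markers rose, while their summed levels overlapped between the groups. The part of leukocytes in the Spp1 value was not tested. Serpinb2, an inhibitor of plasminogen activators, and Hist1h2bk, a histone H2B gene, were at 3 reads or fewer in every sham library and at least at 5 CPM in every MI library. Serpinb2 reached 10.5, 11.5, 14.6 and 6.47 CPM in the MI libraries, with a mean 69.0 times the mean level of 3 reads in sham. Hist1h2bk reached 13.8, 5.17, 14.5 and 9.49 CPM, with a mean 68.6 times that level. These folds between means are lower bounds, since every sham library was at 3 reads or fewer. No gene showed the opposite pattern.

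The largest decreases were Ces1d, Myh6, Lrtm1, Blnk, Ckmt2, Ttn, Mb, Pln, Myl2 and Hrc. In 7 of these 10 the mean in sham cardiomyocytes was at least 10 times that in sham fibroblasts, and the summed cardiomyocyte markers fell in the same libraries; their part in these decreases was not tested. Over all genes lower by 2-fold or more, 245 of 745 had a higher level in sham cardiomyocytes than in sham fibroblasts, a share not counted over all tested genes. Among the others, chosen after their values were seen, were Gfra1, the receptor of the neurotrophic factor GDNF, which fell from 209 ± 14.1 CPM to 40.6 ± 21.6 CPM, and Cyp27a1, a sterol hydroxylase, which fell from 215 ± 20.0 CPM to 57.4 ± 28.04 CPM.

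**Figure D3:**
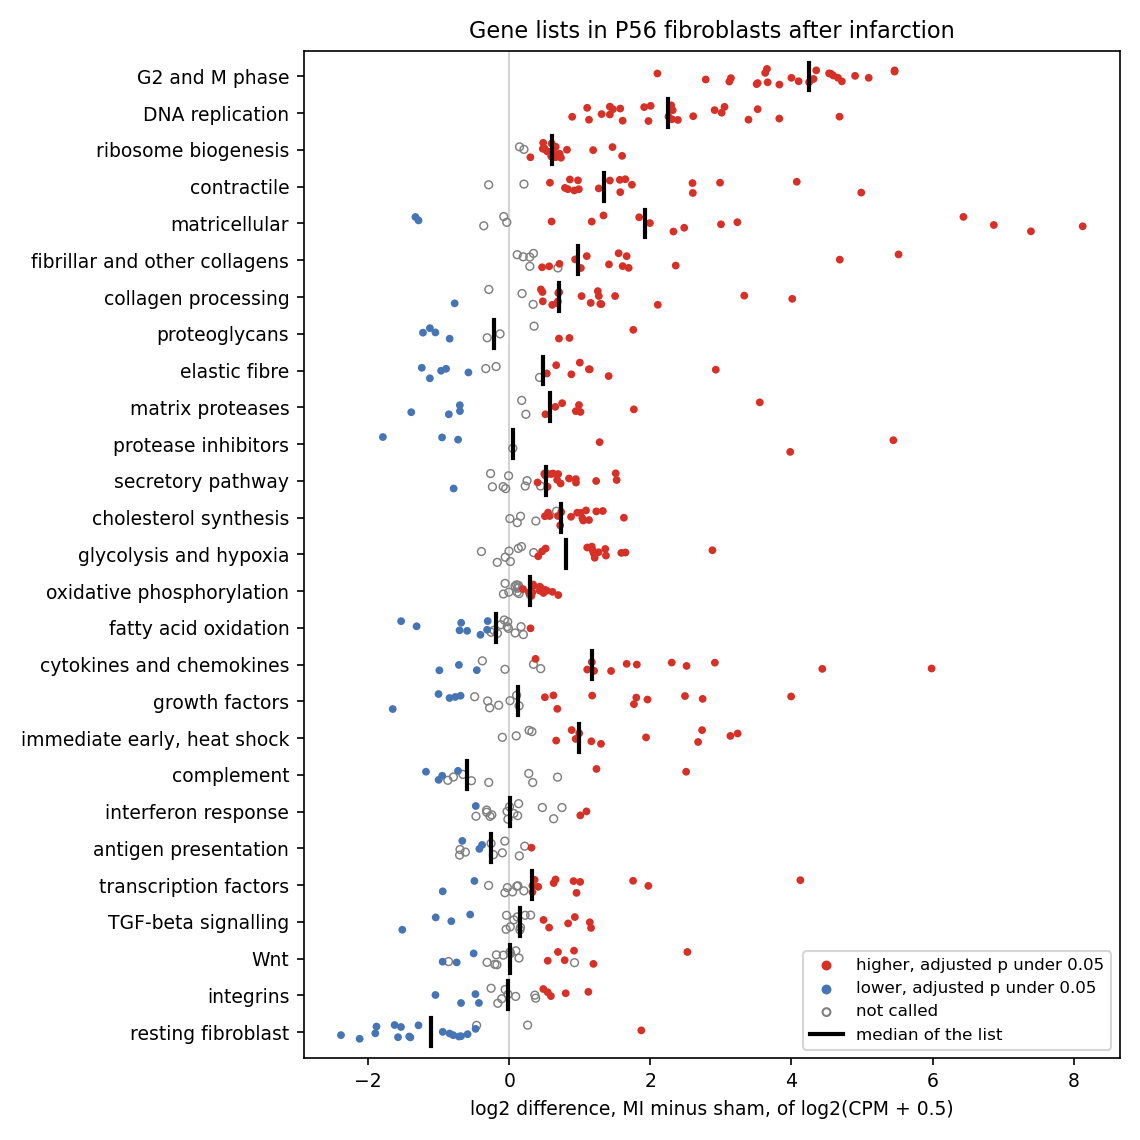
Log2 difference between MI and sham for every tested member of 27 gene lists (filled red, higher and filled blue, lower at an adjusted p under 0.05 in limma; open, not called; black bar, median of the list). Division and replication genes lie entirely to the right of 0, resting fibroblast genes almost entirely to the left, and elastic fibre, protease, Wnt and integrin genes on both sides.

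Genes of cell division rose without exception. All 25 G2 and M phase genes rose, with a median log2 difference of 4.25, and all 25 DNA replication genes rose, with a median of 2.26. Cdk1, the kinase that drives entry into mitosis, was at 0.388, 2.74, 0.518 and 0.514 CPM in the sham libraries and 54.8, 20.0, 65.9 and 53.3 CPM in the MI libraries. Cdk1 rose by 5.09 on the log2 scale (SE 0.36, adjusted p = 2.6e-08). The groups did not overlap, although sham replicate 2 was the highest sham library and MI replicate 2 the lowest MI library. Mki67, which encodes the proliferation antigen Ki-67, was at 2.39, 23.8, 4.09 and 3.51 CPM in the sham libraries and 330.2, 121, 421 and 288 CPM in the MI libraries. Mki67 rose by 5.46 on the log2 scale (SE 0.55, adjusted p = 8.7e-07), again with sham replicate 2 well above the other sham libraries. Tpx2, a spindle assembly factor, rose from 2.04 ± 1.31 CPM to 66.0 ± 26.8 CPM; Kif4, a chromosome-bound kinesin, rose from 1.24 ± 0.312 CPM to 29.1 ± 11.8 CPM; Cdc25c, the phosphatase that activates Cdk1, rose from 0.157 ± 0.109 CPM to 7.54 ± 3.21 CPM; and Cdc20, the activator of the anaphase-promoting complex, rose from 1.18 ± 0.995 CPM to 29.9 ± 10.8 CPM. For replication, Uhrf1, which maintains DNA methylation behind the fork, was at 0.840, 1.65, 0.806 and 0.942 CPM in the sham libraries and 48.4, 15.9, 51.1 and 56.5 CPM in the MI libraries. Uhrf1 rose by 4.68 on the log2 scale (SE 0.29, adjusted p = 7.0e-09). Subunits of the replicative helicase rose with it: Mcm5 from 3.72 ± 0.631 CPM to 64.1 ± 24.96 CPM, Mcm2 from 5.10 ± 0.436 CPM to 50.2 ± 20.3 CPM and Mcm3 from 10.1 ± 1.13 CPM to 57.9 ± 19.1 CPM, with adjusted p of 1.2e-08, 1.2e-07 and 1.3e-07. The summed level of the 25 division genes was 30.6 to 117 CPM in sham and 570.3 to 1876 CPM after MI.

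Promoters of G2 and M phase genes are known for the cell cycle homology region, read by the DREAM and MuvB complexes, together with CCAAT boxes bound by NF-Y. Windows of 300 bases around the RefSeq start (250 before and 50 after, GRCm38.p6, both strands) were searched in the 20 of 25 division genes matched in the table; Aurkb, Ccna2, Cdc25c, Kif20a and Tpx2 were not matched. TTTGAA, the core of the cell cycle homology region, was in 14 of 20 (70%) against 17.9% of all 32851 promoters in the table and 14.1% of the 10489 tested genes with a promoter there; CCAAT was in 16 of 20 (80%) against 37.4% and 42.3%; and both were in 13 of 20 (65%) against 6.95% and 5.74%. In the shorter window of 120 bases before to 30 bases after the start, 9 of the 20 held both. Bub1, Ccnb1 and Birc5 also rose and held 0 matches to TTTGAA in the 300 bases. The 4 of the 9 with the smallest adjusted p are shown here as examples, chosen because they hold both motifs. Letters in capitals mark TTTGAA (or TTCAAA) and CCAAT (or ATTGG), the coding strand is given 5′ to 3′, and no 2 of the marked matches overlap. They lie at chrX:100625945-100626094 (plus strand) for Kif4, chr10:69352883-69353032 (minus strand) for Cdk1, chr4:118437314-118437463 (minus strand) for Cdc20 and chr9:70421525-70421674 (minus strand) for Ccnb2, which encodes cyclin B2.
Kif4: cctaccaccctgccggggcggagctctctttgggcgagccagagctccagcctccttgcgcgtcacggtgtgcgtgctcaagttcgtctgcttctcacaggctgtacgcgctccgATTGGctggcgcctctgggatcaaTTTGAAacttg
Cdk1: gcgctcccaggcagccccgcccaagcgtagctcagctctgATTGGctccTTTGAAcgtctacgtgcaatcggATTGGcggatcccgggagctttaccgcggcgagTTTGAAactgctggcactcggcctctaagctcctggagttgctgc
Cdc20: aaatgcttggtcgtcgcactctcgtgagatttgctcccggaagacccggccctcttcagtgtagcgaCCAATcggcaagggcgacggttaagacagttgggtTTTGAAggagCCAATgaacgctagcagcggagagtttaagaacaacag
Ccnb2: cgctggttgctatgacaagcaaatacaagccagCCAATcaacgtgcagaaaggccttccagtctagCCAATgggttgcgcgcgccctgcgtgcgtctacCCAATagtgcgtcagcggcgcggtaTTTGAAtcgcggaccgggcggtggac
Cdk1 holds 2 matches to each motif, Cdc20 holds 1 TTTGAA and 2 CCAAT, Ccnb2 1 TTTGAA and 3 CCAAT, and Kif4 1 of each. Ccnb2 was at 1.23, 2.44, 1.38 and 1.11 CPM in the sham libraries and 36.7, 12.5, 40.7 and 31.0 CPM in the MI libraries. Ccnb2 rose by 3.83 on the log2 scale (SE 0.28, adjusted p = 2.9e-08), the same pattern as the other 3. TTTGGCGC, an E2F site, was in a promoter of 5 of the 20 replication genes matched (25%) against 1.08% of the 10489 tested genes and 0.585% of the 27025 genes in the table. TGANTCA, the AP-1 site, was in a promoter of 1 of the 7 matrix protease genes matched (14.3%) and of 3 of the 11 cytokine and chemokine genes matched (27.3%), against 6.27% of the tested genes. A match is a run of letters and not a measured binding site.

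Inhibitors of the cell cycle moved in both directions. Of 9 tested, 4 rose and 3 fell. Cdkn1b (p27) fell from 129.7 ± 4.16 CPM to 82.8 ± 8.75 CPM (log2 difference -0.65, SE 0.08, adjusted p = 1.3e-05) and Cdkn1c (p57), an imprinted inhibitor high in quiescent cells, fell from 25.2 ± 2.20 CPM to 11.7 ± 5.38 CPM (log2 difference -1.17, SE 0.21, adjusted p = 2.3e-04). Rb1, the retinoblastoma protein that restrains E2F, fell from 50.1 ± 1.42 CPM to 35.2 ± 4.66 CPM. The INK4 inhibitors Cdkn2b (p15) and Cdkn2d (p19) rose, by 1.09 and 0.42 on the log2 scale. Genes of ribosome biogenesis rose by a smaller amount, 20 of 22 with a median log2 difference of 0.61. Nhp2, of the box H/ACA particles that modify ribosomal RNA, went from 6.24 ± 1.69 CPM to 20.0 ± 5.15 CPM, and Npm1 (nucleophosmin) from 27.1 ± 4.63 CPM to 75.6 ± 11.7 CPM. Myc, the transcription factor that drives growth and ribosome synthesis, was at 8.01, 6.78, 9.67 and 6.38 CPM in the sham libraries and 40.5, 19.6, 19.9 and 60.7 CPM in the MI libraries. Myc rose by 1.97 on the log2 scale (SE 0.27, adjusted p = 2.1e-05), with no overlap.

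**Figure D4:**
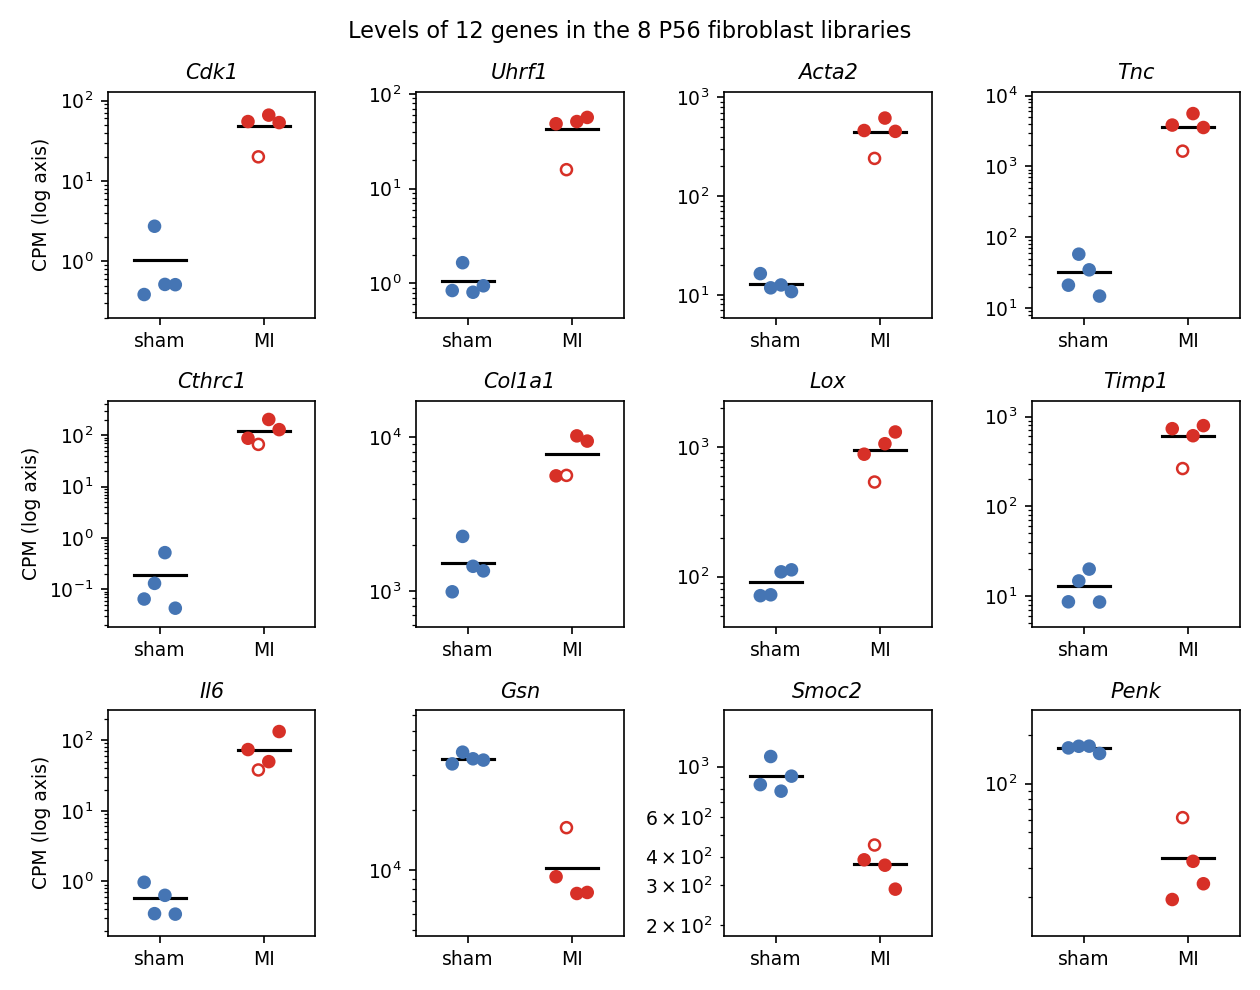
CPM (log axis) of 12 genes in each of the 8 P56 fibroblast libraries (blue, sham; red, MI; open red circle, MI replicate 2; bar, mean of 4). All 4 MI libraries lie above the sham libraries for the first 9 genes and below them for Gsn, Smoc2 and Penk, and MI replicate 2 is the MI library closest to sham for most of them.

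Contractile genes of the myofibroblast rose nearly as one group: 18 of 20 tested members were higher, none lower (1 without MI replicate 3), and the median log2 difference was 1.35. Acta2, smooth muscle alpha-actin and the classic marker of the myofibroblast, was at 16.4, 11.8, 12.6 and 10.8 CPM in the sham libraries and 462, 241, 617 and 453 CPM in the MI libraries. Acta2 rose by 4.99 on the log2 scale (SE 0.22, adjusted p = 1.6e-10). Tagln (SM22), an actin-binding protein of smooth muscle, was at 10.7, 8.61, 8.46 and 8.48 CPM in the sham libraries and 191, 96.4, 223 and 159.7 CPM in the MI libraries. Tagln rose by 4.08 on the log2 scale (SE 0.19, adjusted p = 3.4e-10). In both, the lowest MI library (replicate 2) was many times above the highest sham library. Actn1, the actinin that anchors stress fibres, rose from 33.1 ± 8.20 CPM to 268 ± 70.9 CPM, Tpm2, a tropomyosin of stress fibres, from 21.1 ± 5.01 CPM to 132 ± 35.5 CPM, and Cnn2, a calponin, from 45.4 ± 5.17 CPM to 137 ± 27.2 CPM. The 2 members that were not called were Myh10 (log2 difference 0.21) and Fap (log2 difference -0.29), named because they are the exceptions and not by the naming rule. Fap encodes fibroblast activation protein and went from 84.8 ± 19.6 CPM to 69.8 ± 20.0 CPM. Mural cell markers, a cell type with the same contractile proteins, summed to 2609.6 to 5744 CPM in sham and 2203 to 3623 CPM after MI, 1 of 11 rose and 2 fell. The one that rose was Myh11, the myosin of mature smooth muscle, from 14.1 ± 5.00 CPM to 53.8 ± 27.0 CPM; the part of mural cells in the contractile genes was not tested. Over the 10 fits that left out libraries 1 to 3 mural markers rose, with 3 without sham replicate 1 and 2 without MI replicate 3. In the same fits 0 to 4 fell, with 4 without MI replicate 2 and 0 without every fibroblast library of over 1% 18S.

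Matricellular proteins, which sit in the matrix and signal to cells rather than bear load, held several of the largest rises. 13 of 18 rose and 2 fell, with a median log2 difference of 1.92. Tnc (tenascin C), a marker of the infarct border in textbook accounts, was at 21.0, 57.6, 34.6 and 14.7 CPM in the sham libraries and 3833, 1642, 5567 and 3541 CPM in the MI libraries. Tnc rose by 6.87 on the log2 scale (SE 0.34, adjusted p = 7.9e-10). Fn1 (fibronectin), the scaffold on which collagen is laid down, was at 387, 509, 381 and 332 CPM in the sham libraries and 2676, 2644, 5040.2 and 2880.2 CPM in the MI libraries. Fn1 rose by 3.00 on the log2 scale (SE 0.22, adjusted p = 3.3e-08). Postn (periostin), outside the naming rule and chosen after its values were seen, was at 493, 1037, 651 and 388 CPM in the sham libraries and 6259, 3176, 9475 and 5385 CPM in the MI libraries. Postn rose by 3.23 on the log2 scale (SE 0.38, adjusted p = 4.4e-06). MI replicate 2 was the lowest MI library for all of these, and even it was above every sham library. The 2 that fell were Thbs2 (thrombospondin 2), from 1253 ± 159 CPM to 515 ± 165 CPM, and Smoc2, a SPARC-related modular protein, from 906 ± 144 CPM to 373 ± 67.2 CPM; in both, every MI library was below every sham library.

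Collagens rose without exception among those called. 14 of 20 tested chains were higher, 0 lower, and the median log2 difference was 0.98. Col1a1, the main chain of type I collagen, was at 991, 2270.2, 1451 and 1354 CPM in the sham libraries and 5619, 5659, 10222 and 9454 CPM in the MI libraries. Col1a1 rose by 2.36 on the log2 scale (SE 0.29, adjusted p = 7.0e-06). Col1a2, the other chain of type I collagen, rose from 3962 ± 964 CPM to 12124 ± 3255 CPM, and Col3a1, the chain of type III collagen, from 10873 ± 2184 CPM to 31665 ± 4893 CPM. Larger log2 differences were seen in 2 other chains. Col12a1, a fibril-associated collagen, rose from 20.1 ± 4.81 CPM to 568 ± 257 CPM (log2 difference 4.68, SE 0.27, adjusted p = 4.6e-09) and Col11a1, a minor fibrillar chain best known from cartilage, from 0.566 ± 0.228 CPM to 63.5 ± 51.2 CPM (log2 difference 5.52, SE 0.42, adjusted p = 4.5e-08). Col5a2, a chain of type V collagen, which is known to regulate fibril diameter, rose from 1340.1 ± 212 CPM to 4308 ± 1030.3 CPM, and Col8a2, a short-chain collagen, from 7.46 ± 0.950 CPM to 21.8 ± 9.10 CPM. The summed level of the 20 chains was 26827 to 43191 CPM in sham and 69151 to 97511 CPM after MI.

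The enzymes that modify and cross-link collagen rose too, 18 of 22, with a median log2 difference of 0.70. P4ha3, a prolyl hydroxylase alpha subunit, was at 0.517, 0.304, 0.460 and 0.557 CPM in the sham libraries and 15.7, 10.7, 14.7 and 19.9 CPM in the MI libraries. P4ha3 rose by 4.01 on the log2 scale (SE 0.16, adjusted p = 1.2e-10) and had one of the smallest adjusted p of all genes. Lox, the lysyl oxidase that cross-links collagen and elastin, was at 71.2, 72.4, 109 and 113 CPM in the sham libraries and 883, 538, 1064 and 1311 CPM in the MI libraries. Lox rose by 3.33 on the log2 scale (SE 0.23, adjusted p = 2.1e-08). Its relative Loxl3 rose from 84.8 ± 7.96 CPM to 387 ± 135 CPM, the prolyl hydroxylase beta subunit P4hb from 575 ± 56.7 CPM to 1386 ± 242 CPM, and Fkbp10, a chaperone of procollagen in the endoplasmic reticulum, from 89.4 ± 11.8 CPM to 261 ± 75.5 CPM. Pcolce2, an enhancer of procollagen C-proteinase, was the one member that fell, from 278 ± 55.7 CPM to 162 ± 24.5 CPM (log2 difference -0.77, SE 0.15, adjusted p = 5.3e-04), and 2 fell without MI replicate 4.

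Small proteoglycans and elastic fibre proteins split. Of 10 proteoglycans 3 rose and 4 fell. Dcn (decorin), which coats collagen fibrils and binds TGF-beta, was at 11804, 13099, 14768 and 13035 CPM in the sham libraries and 5655, 8005, 4702 and 4720.0 CPM in the MI libraries. Dcn fell by 1.22 on the log2 scale (SE 0.21, adjusted p = 1.8e-04), with no overlap. Omd (osteomodulin) fell from 18.5 ± 4.28 CPM to 8.11 ± 1.21 CPM and Prelp from 453 ± 107 CPM to 225 ± 83.7 CPM, both leucine-rich matrix proteins. Bgn (biglycan), the closest relative of decorin, rose from 1293 ± 334 CPM to 2062 ± 216 CPM (log2 difference 0.71, SE 0.17, adjusted p = 0.0022). Vcan (versican), the large hyaluronan-binding proteoglycan of loose matrix, rose from 1009 ± 189 CPM to 1802 ± 109.5 CPM (log2 difference 0.85, SE 0.22, adjusted p = 0.0041). Among 16 elastic fibre genes 8 rose and 5 fell. Ltbp2, a latent TGF-beta binding protein of microfibrils, rose from 67.2 ± 13.4 CPM to 545 ± 204 CPM (log2 difference 2.93, SE 0.25, adjusted p = 1.7e-07). Fbn2 (fibrillin 2), the fibrillin of development, rose from 31.0 ± 12.8 CPM to 80.9 ± 26.6 CPM. Efemp2 (fibulin 4), needed for elastic fibre assembly, rose from 79.5 ± 12.2 CPM to 177 ± 30.7 CPM. Fbln5 (fibulin 5) fell from 280.4 ± 27.8 CPM to 145 ± 30.1 CPM, Ltbp4 from 1453 ± 264 CPM to 614 ± 115 CPM and Fbln1 (fibulin 1) from 1090.3 ± 218 CPM to 525 ± 236 CPM. Over the 10 fits that left out libraries 3 to 5 elastic fibre genes fell, with 3 without sham replicate 2 or 4, without MI replicate 1, 3 or 4 and without every library of over 1% 18S.

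Matrix proteases and their inhibitors moved in both directions. Of 14 proteases 8 rose and 4 fell. Adamts4, an aggrecanase that also cleaves versican, was at 12.6, 9.39, 3.68 and 3.56 CPM in the sham libraries and 103, 41.7, 62.0 and 152 CPM in the MI libraries. Adamts4 rose by 3.55 on the log2 scale (SE 0.38, adjusted p = 1.6e-06). Mmp14, the membrane-bound collagenase that activates pro-MMP2, rose from 213 ± 43.0 CPM to 431 ± 97.6 CPM. Mmp3 (stromelysin 1) rose from 4.42 ± 1.06 CPM to 18.7 ± 13.0 CPM. Mmp2 (gelatinase A) fell instead, with 1085, 1441, 1568 and 1140.4 CPM in the sham libraries and 567, 1226, 601 and 623 CPM in the MI libraries. Mmp2 fell by 0.86 on the log2 scale (SE 0.21, adjusted p = 0.003); MI replicate 2 lay within the sham range and the other 3 MI libraries below it. Adamts5, another aggrecanase, fell from 897 ± 106 CPM to 359 ± 144 CPM. Plau, the urokinase plasminogen activator, fell from 60.6 ± 10.1 CPM to 37.0 ± 4.51 CPM. Among the inhibitors, Timp1 was at 8.66, 14.8, 20.0 and 8.61 CPM in the sham libraries and 733, 264, 612 and 792 CPM in the MI libraries. Timp1 rose by 5.44 on the log2 scale (SE 0.32, adjusted p = 6.0e-09), without overlap. Timp2, Timp3 and Timp4 moved the other way: Timp2 fell from 808 ± 141 CPM to 508 ± 205 CPM, Timp3 from 474 ± 109.5 CPM to 247 ± 66.1 CPM and Timp4 from 8.18 ± 2.23 CPM to 1.98 ± 0.451 CPM, with adjusted p of 0.0077, 0.0012 and 5.8e-06. For Timp2, MI replicate 2 was at 813 CPM, near the sham mean, and the other MI libraries at 383 to 442 CPM.

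Genes of the secretory pathway rose in 15 of 25 cases, with a median log2 difference of 0.52. Sec61b, a subunit of the channel through which proteins enter the endoplasmic reticulum, rose from 7.33 ± 0.422 CPM to 22.5 ± 5.34 CPM (log2 difference 1.52, SE 0.14, adjusted p = 2.7e-07), and Creb3l1, a transcription factor of the secretory and collagen programme, from 15.02 ± 4.59 CPM to 43.2 ± 10.1 CPM (log2 difference 1.51, SE 0.20, adjusted p = 1.9e-05). The disulfide isomerases Pdia6 and Pdia3 rose by 1.23 and 0.85 on the log2 scale. Herpud1, an unfolded protein response target that serves degradation, was the one member that fell, from 147 ± 34.2 CPM to 83.8 ± 11.5 CPM, 3 fell without MI replicate 2, and 2 fell without every library of over 1% 18S. Genes of cholesterol synthesis rose in 16 of 21 cases with none lower (median log2 difference 0.74). Pmvk (phosphomevalonate kinase) rose from 2.66 ± 0.738 CPM to 6.95 ± 1.68 CPM.

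Energy metabolism shifted by list. Glycolysis and hypoxia genes rose in 14 of 22 cases with none lower, at a median log2 difference of 0.81. Slc16a3 (MCT4), the lactate exporter of glycolytic cells, was at 12.0, 11.0, 11.2 and 12.1 CPM in the sham libraries and 108, 52.8, 83.9 and 128 CPM in the MI libraries. Slc16a3 rose by 2.88 on the log2 scale (SE 0.19, adjusted p = 1.2e-08), with no overlap. Ldha (lactate dehydrogenase A) rose from 78.5 ± 5.54 CPM to 242 ± 55.1 CPM and Tpi1 (triosephosphate isomerase) from 48.0 ± 5.403 CPM to 109 ± 16.1 CPM. Oxidative phosphorylation genes rose in 14 of 25 cases with none lower, at a median log2 difference of 0.30. Without MI replicate 2, 17 rose, and without sham replicates 1 and 3, 10 did. The list summed to 1839 to 1972 CPM in sham fibroblasts and to 62748 CPM in sham cardiomyocytes, whose markers fell after MI. Cox6a1, a cytochrome oxidase subunit, rose from 37.8 ± 2.62 CPM to 61.7 ± 5.92 CPM. Fatty acid oxidation genes fell in 8 of 20 cases and rose in 1, which no longer passed without sham replicate 3 or 4, without MI replicate 1, 3 or 4 or without the libraries of over 1% 18S (0 rose). Pdk4, the kinase that spares glucose by switching off pyruvate dehydrogenase, was at 70.6, 31.4, 32.5 and 29.9 CPM in the sham libraries and 12.8, 14.5, 9.47 and 15.8 CPM in the MI libraries. Pdk4 fell by 1.53 on the log2 scale (SE 0.24, adjusted p = 8.0e-05). Ppara, the receptor that controls the pathway, fell from 6.13 ± 0.467 CPM to 2.27 ± 0.965 CPM, and Acadm, the medium-chain dehydrogenase, from 49.0 ± 7.53 CPM to 29.7 ± 2.58 CPM. This list is high in cardiomyocytes (18879 CPM in sham cardiomyocytes against 831 to 1052 CPM in sham fibroblasts), whose markers fell in the same libraries; their part in this result was not tested.

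Fibroblast cytokines and chemokines rose in 12 of 19 tested cases and fell in 3, with a median log2 difference of 1.17. Il6 (interleukin 6) was at 0.969, 0.348, 0.633 and 0.343 CPM in the sham libraries and 73.8, 37.9, 49.8 and 133 CPM in the MI libraries. Il6 rose by 5.99 on the log2 scale (SE 0.37, adjusted p = 8.0e-09). In MI leukocytes Il6 was 8.53 CPM, below every MI fibroblast library. The list as a whole was not higher in fibroblasts. Its summed level was 965 to 1570 CPM in the MI fibroblast libraries, 1908 CPM in MI leukocytes and 1603 CPM in MI endothelial cells. The neutrophil-attracting chemokines Cxcl5 and Cxcl1 rose from 1.496 ± 0.376 CPM to 46.4 ± 22.4 CPM and from 31.2 ± 12.3 CPM to 176 ± 62.0 CPM. Il33, an alarmin released by stromal cells, rose from 42.1 ± 6.83 CPM to 151 ± 37.6 CPM (log2 difference 1.81, SE 0.19, adjusted p = 1.5e-06). Ccl2 and Cxcl2 were among the others that rose, named after their values were seen: Ccl2, the main attractant of monocytes, went from 21.8 ± 3.42 CPM to 129 ± 83.4 CPM and Cxcl2 from 0.210 ± 0.0361 CPM to 5.598 ± 3.78 CPM. For Cxcl14, a homeostatic chemokine, MI replicate 2 was at 246 CPM and the other MI libraries at 119 to 135 CPM. Cxcl14 fell from 247 ± 46.1 CPM to 156 ± 60.5 CPM. That call was lost without every fibroblast library of over 1% 18S (adjusted p = 0.0537). Then 0 members fell, and without sham replicates 1 and 3 alone 1 fell.

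Of 17 cytokine receptors 7 rose and 5 fell. The receptor chains of interleukins 4 and 13 rose together, Il4ra from 95.0 ± 8.12 CPM to 227 ± 84.3 CPM and Il13ra1 from 48.6 ± 1.95 CPM to 129 ± 19.9 CPM. Tnfrsf12a (Fn14), the receptor of TWEAK, rose from 10.7 ± 0.868 CPM to 51.8 ± 20.8 CPM (log2 difference 2.12, SE 0.23, adjusted p = 2.5e-06), and Tnfrsf11b (osteoprotegerin), a soluble decoy receptor of RANKL, from 3.72 ± 0.792 CPM to 25.2 ± 8.86 CPM. While Il6 rose, its receptor chain Il6ra fell from 67.2 ± 8.72 CPM to 25.9 ± 11.3 CPM (log2 difference -1.44, SE 0.22, adjusted p = 6.4e-05), and so did Lifr, the receptor of leukaemia inhibitory factor, from 156 ± 11.9 CPM to 68.6 ± 17.4 CPM, and the interferon gamma receptor chain Ifngr1, from 265 ± 33.6 CPM to 144 ± 9.05 CPM; 3 receptors fell without every library of over 1% 18S. Of 14 complement genes 4 fell and 2 rose, against 25.2% and 24.8% of all tested genes, with 8 falls without MI replicate 2 and 1 rise without MI replicate 1, 2 or 3. Serping1, the inhibitor of C1, fell from 1416 ± 253 CPM to 725 ± 240.1 CPM. Cfi (factor I), the protease that inactivates C3b, rose instead, from 2.00 ± 0.925 CPM to 13.3 ± 2.79 CPM (log2 difference 2.51, SE 0.22, adjusted p = 1.7e-07). Few genes of the interferon response changed. Of 17 genes 2 rose and 1 fell, at a median log2 difference of 0.00. A match to the interferon-stimulated response element was in a promoter of 7 of the 12 genes matched (58.3%) against 3.60% of the 10489 tested genes. Isg15, one of the 2 that rose, was at 1.55, 1.22, 1.38 and 1.93 CPM in the sham libraries and 2.63, 2.54, 7.99 and 2.76 CPM in the MI libraries. Isg15 rose by 1.01 on the log2 scale (SE 0.26, adjusted p = 0.0047), with replicate 3 far above the other MI libraries. The Isg15 call was lost without every library of over 1% 18S (adjusted p = 0.074), where 0 rose, and 1 gene rose and 5 fell without MI replicate 3. The list had 1 rise without sham replicates 1 and 3, 2 falls without sham replicate 1 or MI replicate 2, and 3 falls without sham replicate 2. Of 13 antigen presentation genes 1 rose and 3 fell; over the 10 fits that left out libraries, 1 to 4 fell (1 without sham replicate 3 or 4 or MI replicate 1) and 0 to 1 rose (0 without sham replicate 2, 3 or 4, MI replicate 2, 3 or 4 or the libraries of over 1% 18S).

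Immediate early genes, which respond within minutes to growth factors and to cell dissociation, rose with the heat shock genes of the list in 11 of 15 cases (median log2 difference 0.99). Atf3, a stress-induced transcription factor, was at 7.24, 5.13, 7.48 and 3.51 CPM in the sham libraries and 29.1, 37.1, 31.2 and 76.6 CPM in the MI libraries. Atf3 rose by 2.73 on the log2 scale (SE 0.27, adjusted p = 8.2e-07). Egr2 rose from 6.40 ± 2.10 CPM to 70.4 ± 34.5 CPM. Fos, part of the AP-1 factor, rose from 72.1 ± 32.1 CPM to 449.5 ± 238 CPM (log2 difference 2.68, SE 0.38, adjusted p = 3.0e-05). Both groups went through the same dissociation, and its part in these levels was not tested.

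Growth factors rose in 10 and fell in 5 of 22 cases. Ligands of the ErbB receptors rose from low levels: Ereg (epiregulin) was at 0.905, 1.52, 1.84 and 1.58 CPM in the sham libraries and 56.5, 13.4, 19.7 and 55.7 CPM in the MI libraries. Ereg rose by 4.00 on the log2 scale (SE 0.42, adjusted p = 1.6e-06). Nrg1 (neuregulin 1) rose from 0.180 ± 0.0840 CPM to 3.68 ± 2.33 CPM. Hbegf rose from 3.04 ± 1.33 CPM to 13.3 ± 4.58 CPM. Pdgfc and Pdgfa, ligands of the receptor Pdgfra that fibroblasts carry, rose from 0.104 ± 0.0734 CPM to 3.71 ± 1.54 CPM and from 7.08 ± 0.879 CPM to 16.7 ± 2.56 CPM, while Pdgfra itself fell from 1530.0 ± 169.5 CPM to 888 ± 155 CPM (log2 difference -0.79, SE 0.14, adjusted p = 2.1e-04). Fgf10, a fibroblast growth factor, fell from 26.4 ± 3.87 CPM to 10.3 ± 9.84 CPM. Its level in MI replicate 2 was 25.1 CPM, near the sham mean, against 4.77 to 5.78 CPM in the other MI libraries.

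Components of TGF-beta signalling rose in 6 and fell in 4 of 19 cases, beside 24.8% and 25.2% of all tested genes. Without MI replicate 2, 9 rose, and without sham replicates 1 and 3, 5 did. Among the ligands, Tgfb1 was at 10.7, 14.4, 15.9994 and 13.3 CPM in the sham libraries and 28.5, 19.02, 34.6 and 45.1 CPM in the MI libraries. Tgfb1 rose by 1.14 on the log2 scale (SE 0.21, adjusted p = 2.9e-04). Tgfb3 rose from 77.7 ± 14.3 CPM to 141 ± 38.4 CPM. Inhba, which encodes the subunit of activin A, rose from 4.84 ± 1.28 CPM to 11.8 ± 3.98 CPM. The BMP ligands Bmp4 and Bmp2 fell, from 61.0 ± 14.6 CPM to 20.7 ± 2.63 CPM and from 9.80 ± 1.56 CPM to 5.403 ± 1.47 CPM. Among the receptors, the co-receptor Tgfbr3 (betaglycan) fell from 422 ± 39.1 CPM to 212 ± 70.9 CPM (log2 difference -1.04, SE 0.18, adjusted p = 1.8e-04). Smad6, an inhibitory Smad of the BMP branch, rose from 8.19 ± 1.88 CPM to 16.5 ± 5.48 CPM. Of 20 Wnt pathway genes 6 rose and 3 fell, with 24.8% and 25.2% of all tested genes as background; Dkk2 and Dkk3, secreted modulators of the pathway, rose from 0.345 ± 0.122 CPM to 4.58 ± 1.96 CPM and from 46.9 ± 6.99 CPM to 82.5 ± 21.0 CPM, and the receptor Fzd1 rose from 66.0 ± 9.35 CPM to 107 ± 15.4 CPM. The ligand Wnt11 fell from 29.4 ± 6.71 CPM to 15.8 ± 7.22 CPM (log2 difference -0.94, SE 0.22, adjusted p = 0.0024), a call lost without the fibroblast libraries of over 1% 18S (adjusted p = 0.059), where 1 Wnt gene fell. Of 17 integrins 5 rose and 4 fell, near the 24.8% and 25.2% of all tested genes, and the median log2 difference was -0.02. Among the 5 that rose were Itga5 from 129.7 ± 17.2 CPM to 293 ± 100.3 CPM and Itgb1 from 696 ± 22.9 CPM to 1059.5 ± 168 CPM. Itgav rose from 217 ± 29.5 CPM to 318 ± 56.2 CPM and Itgb3 from 32.5 ± 9.76 CPM to 55.3 ± 5.76 CPM. The 4 that fell are not named here, and the lowest log2 difference of the list was -1.05. Over the 10 fits that left out libraries 1 to 3 integrins fell. Without MI replicate 1 only 1 did, and without sham replicate 1, 2 or 4, MI replicate 3 or 4 or the libraries rich in 18S, 2 did.

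Transcription factors linked to fibroblast activation rose in 12 and fell in 2 of 21 cases. The rises depended on the libraries used: 11 rose without MI replicate 2 and 8 without sham replicates 1 and 3. Runx1 was at 3.17, 2.35, 3.40 and 2.70 CPM in the sham libraries and 55.3, 35.6, 95.0 and 62.3 CPM in the MI libraries. Runx1 rose by 4.13 on the log2 scale (SE 0.24, adjusted p = 6.0e-09), with every MI library far above sham. Meox1, described as a switch of fibroblast activation, rose from 53.2 ± 16.6 CPM to 183 ± 58.6 CPM (log2 difference 1.76, SE 0.23, adjusted p = 1.1e-05), and Snai1, known from epithelial to mesenchymal transition, from 9.06 ± 0.765 CPM to 18.3 ± 4.23 CPM. The 2 that fell mark the cardiac fibroblast lineage: Tcf21 was at 99.9, 88.8, 96.6 and 66.5 CPM in the sham libraries and 46.2, 59.0, 38.7 and 38.8 CPM in the MI libraries. Tcf21 fell by 0.94 on the log2 scale (SE 0.16, adjusted p = 1.9e-04) and Gata4 went from 73.6 ± 2.44 CPM to 52.4 ± 5.98 CPM (log2 difference -0.49, SE 0.11, adjusted p = 0.0018).

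Genes of the resting fibroblast fell nearly as one group. 17 of 20 were lower, 1 was higher, and the median log2 difference was -1.11. The members were chosen with earlier results of these data known, so the count is a description and not an independent test. Gsn (gelsolin), which severs actin filaments, was at 34132, 39077, 36198 and 35658 CPM in the sham libraries and 9269, 16338, 7636 and 7729 CPM in the MI libraries. Gsn fell by 1.90 on the log2 scale (SE 0.28, adjusted p = 3.8e-05). Penk (proenkephalin) was at 166, 170.2, 171 and 154 CPM in the sham libraries and 19.2, 61.7, 33.1 and 24.1 CPM in the MI libraries. Penk fell by 2.38 on the log2 scale (SE 0.31, adjusted p = 1.1e-05). Inmt, an indolamine methyltransferase, fell from 62.2 ± 23.3 CPM to 13.4 ± 3.79 CPM. Abca8a, a lipid transporter, fell from 3552 ± 113 CPM to 1260.0 ± 339.8 CPM. No MI library reached the lowest sham library in any of these. Cilp, a matrix protein that antagonises TGF-beta, was the exception and rose from 123 ± 26.6 CPM to 474 ± 191 CPM (log2 difference 1.87, SE 0.23, adjusted p = 8.8e-06). The summed level of the list was 48434 to 55062 CPM in sham and 14256 to 27497 CPM after MI, and MI replicate 2 was the highest MI library in it, at 27497 CPM.

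All 7 epicardial markers rose, with a median log2 difference of 1.80 but at low levels. Krt19, a keratin of the mesothelial layer, was at 2.13, 0.957, 0.576 and 0.685 CPM in the sham libraries and 6.13, 5.65, 5.31 and 3.74 CPM in the MI libraries. Krt19 rose by 1.92 on the log2 scale (SE 0.27, adjusted p = 2.9e-05). Wt1, the transcription factor of the epicardium, rose from 1.95 ± 1.04 CPM to 5.27 ± 1.38 CPM (log2 difference 1.30, SE 0.26, adjusted p = 5.9e-04). For Lrrn4 the highest sham library, replicate 1, stood at 4.46 CPM against 4.61 CPM in the lowest MI library.

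The same operations in neonates gave the reference for these changes, at an age when the mouse heart is known to regenerate. The difference was tested as the change at P56 minus the change at P1 in the same limma fit, and 4989 of 15729 genes (31.7%) differed at an adjusted p under 0.05. Of the 16 fibroblast libraries, 1 P1 sham library and 3 of the 4 P1 MI libraries carried more than 1% 18S (2.36 to 26.1%). The full fit called 2550 genes as moving more upward at P56 and 2439 as moving more downward. Without every fibroblast library of over 1% 18S, far fewer passed in each direction. That fit leaves 1 P1 MI library, whose spread is taken from the other groups.

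Division genes were high in neonates after both operations. Cdk1 was at 82.7 ± 10.5 CPM in P1 sham and 84.4 ± 11.4 CPM in P1 MI, and the P56 groups went from 1.04 ± 1.13 CPM to 48.5 ± 19.8 CPM (difference between the ages 5.07, SE 0.51, adjusted p = 5.4e-06). All 25 G2 and M phase genes and all 25 replication genes moved more upward at P56 than at P1, where their medians were -0.10 and -0.11; without every library of over 1% 18S, 25 and 19 did. Mcm5 stood at 84.9 ± 10.3 CPM in P1 sham and 82.1 ± 6.598 CPM in P1 MI, levels above the mean of 64.1 ± 24.96 CPM in adults after MI. Adult sham fibroblasts were the low group in these genes, and adult MI brought them toward the neonatal level. Col1a1 had the same arrangement of levels: it was at 7651 ± 1742 CPM in P1 sham and 9233 ± 1913 CPM in P1 MI, against 1516 ± 540.2 CPM in adult sham and 7738 ± 2445 CPM in adult MI (difference between the ages 2.08, SE 0.41, adjusted p = 0.0014), and 10 of 20 collagens moved more upward at P56 (5 without sham replicates 1 and 3). Without every library of over 1% 18S only 2 collagens did, and the Col1a1 difference had an adjusted p of 0.0504. Acta2, already present in neonates, was at 248 ± 49.7 CPM in P1 sham and 383 ± 24.6 CPM in P1 MI (difference between the ages 4.34, SE 0.31, adjusted p = 4.8e-07).

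Tnc went beyond the neonatal level, while Cthrc1 and Il6 reached it. Cthrc1 was at 78.5 ± 7.15 CPM in P1 sham and 96.4 ± 6.51 CPM in P1 MI, and at 122 ± 60.5 CPM in adult MI (difference between the ages 7.10, SE 0.36, adjusted p = 8.3e-09). Tnc was at 533 ± 32.8 CPM in P1 sham and 961 ± 40.5 CPM in P1 MI, below the 3646 ± 1608 CPM of adult MI (difference between the ages 6.02, SE 0.49, adjusted p = 1.4e-06), and Il6 at 70.8 ± 26.2 CPM in P1 sham and 88.9 ± 45.3 CPM in P1 MI (difference between the ages 5.72, SE 0.53, adjusted p = 2.5e-06). Of the resting fibroblast list 12 of 20 moved further down at P56 than at P1 at an adjusted p under 0.05; Smoc2 was at 488 ± 64.3 CPM in P1 sham and 355 ± 64.9 CPM in P1 MI (difference between the ages -0.82, SE 0.23, adjusted p = 0.013). Gsn was at 2287 ± 389.9 CPM in P1 sham and 1676 ± 509 CPM in P1 MI, below both adult groups (difference between the ages -1.42, SE 0.39, adjusted p = 0.012). Without every library of over 1% 18S the differences of Smoc2 and Gsn did not pass (adjusted p = 0.0541 and 0.11), and 1 gene of the list did. The largest differences in the downward direction were the cardiomyocyte genes Myh6, Ttn, Xirp2, Mb, Myl2 and Ckmt2, of which Myh6 was at 53.5 ± 15.5 CPM in P1 sham and 91.3 ± 17.7 CPM in P1 MI (difference between the ages -3.69, SE 0.49, adjusted p = 5.4e-05). Ckmt2 did not pass without the libraries of over 1% 18S (adjusted p = 0.055).

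**Figure D5:**
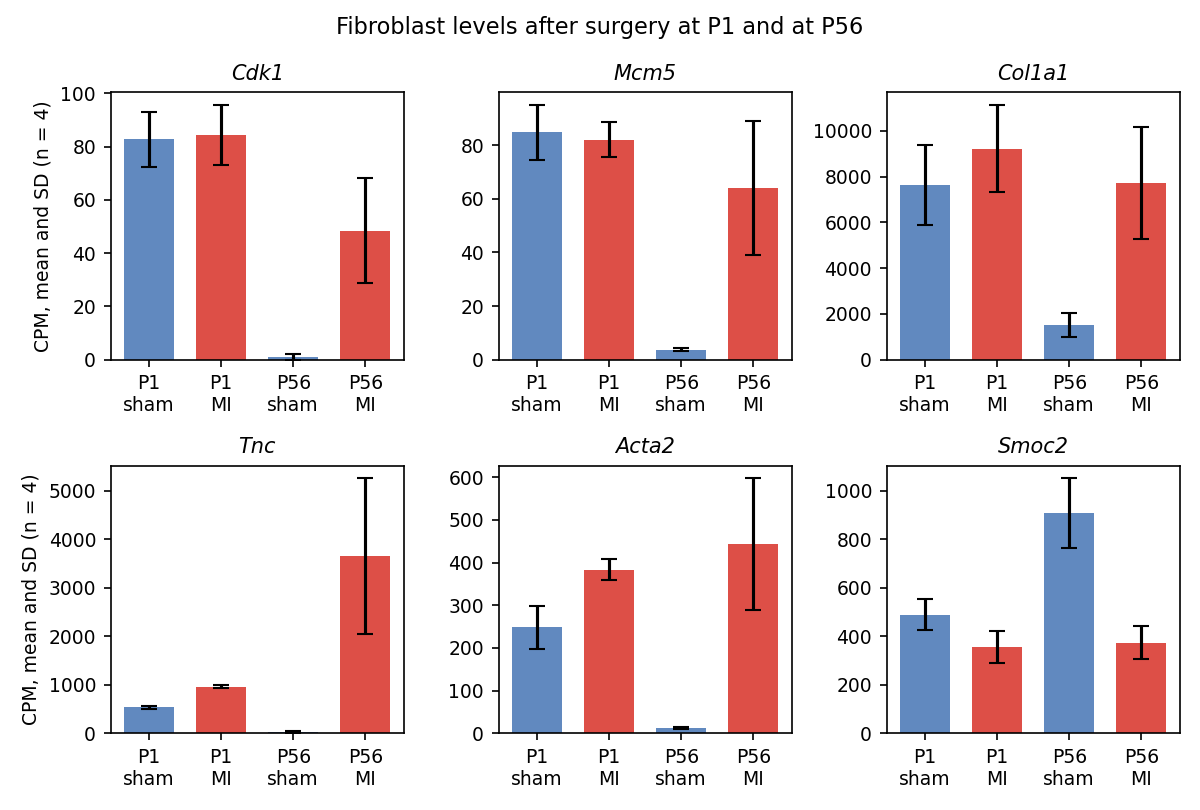
Mean CPM with SD (n = 4) of 6 genes in fibroblasts after sham (blue) or MI (red) surgery at P1 and at P56, each panel with its own linear axis from 0. In adult sham, Cdk1, Mcm5, Col1a1, Tnc and Acta2 are far below both P1 groups, and all 5 are higher in adult MI, while Smoc2 is highest in adult sham.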

How the data were processed

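Fibroblast libraries, sorted from ventricles, were made from rRNA-depleted total RNA with a stranded kit and read as 50-base single ends, per the labels' protocols. The authors deposited one table of CPM for 20637 genes in 64 samples, which holds reads per gene divided by a library-wide factor, a signal that keeps the depth. Tools named in the submitters' processing notes are STAR, HTSeq, Trimmomatic and edgeR, beside builds mm10, GRCm38 and GRCh38; their versions, roles and the strand setting of the counting are not given in the sources used here, so a gene and its antisense neighbour may share reads. The deposited CPM values were whole multiples of 1 read (100% within 0.01 of a whole number), from which whole reads were recovered for depth and for the count tests.

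The 15729 genes with 1 CPM or more in 4 or more of the 16 fibroblast libraries were fitted on log2(CPM + 0.5) with limma 3.58.1 in R 4.3.3, 1 mean per group and a variance trend. All 4 fibroblast groups shared 1 estimate of the spread, and genes were called at a Benjamini-Hochberg adjusted p under 0.05 over all tested genes. edgeR 4.0.16 and DESeq2 1.42.0 on the recovered reads, other pseudocounts, filters, scalings and left-out libraries served as alternatives. The limma fit was tested for MI against sham at P56 on simulated libraries with known folds in some genes. The simulation gave all genes the same dispersion and held no library like MI replicate 2. The edgeR and DESeq2 fits and the difference between ages were not simulated.

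Genes and lists were chosen with earlier results of these data known. Named genes are the 10 largest increases and decreases whose groups did not overlap and reached a mean of 5 CPM, the 8 smallest adjusted p, the 8 highest levels per length in each group (by the deposited lengths, which for some genes, such as Col1a2, are far shorter than the gene's main transcript, so no level per length is printed), up to 5 called members of each list in its main direction and 3 in the other, the sort's antigens, genes at or under 3 reads in 1 group and at 5 CPM or more in the other, and the 6 largest differences between ages each way; fewer are printed, and other names are marked. Promoters are from RefSeq, GRCm38.p6. ATAC-seq of the same series was not analysed here.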

Additional observations from a re-analysis of the deposited data

Results flagged for a closer look

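Among the genes named here, 27 of 334 groups of 4 libraries had 1 library whose gap to its nearest neighbour, as a share of the group's range, passed Dixon's critical value; chance gives about 1 in 20. MI replicate 2 was that library in 9 groups, sham replicate 1 in 7 and sham replicate 2 in 5. Sham replicate 1 was the highest library of its group for Acadm (60.2 CPM against 44.2 to 45.8 CPM in the other 3), Cdkn1b (136 CPM against 127 to 128 CPM in the other 3), Lrrn4 (4.46 CPM against 0.978 to 1.33 CPM in the other 3), Pdk4 (70.6 CPM against 29.9 to 32.5 CPM in the other 3) and Tagln (10.7 CPM against 8.46 to 8.61 CPM in the other 3). Sham replicate 1 was the lowest library of its group for Loxl3 (72.9 CPM against 88.2 to 89.4 CPM in the other 3) and Tgfbr3 (364 CPM against 438 to 445 CPM in the other 3). Sham replicate 2 was the highest library of its group for Cdc20 (2.65 CPM against 0.452 to 0.814 CPM in the other 3), Cdk1 (2.74 CPM against 0.388 to 0.518 CPM in the other 3), Mki67 (23.8 CPM against 2.39 to 4.09 CPM in the other 3), Top2a (14.6 CPM against 1.29 to 3.17 CPM in the other 3) and Uhrf1 (1.65 CPM against 0.806 to 0.942 CPM in the other 3). Sham replicate 3 was the highest library of its group for Il13ra1 (51.5 CPM against 47.4 to 47.8 CPM in the other 3) and Lcp1 (2.70 CPM against 1.09 to 1.36 CPM in the other 3). Sham replicate 4 was the highest library of its group for Mmp3 (6.00 CPM against 3.74 to 4.09 CPM in the other 3). MI replicate 2 was the highest library of its group for Cxcl14 (246 CPM against 119 to 135 CPM in the other 3), Fgf10 (25.1 CPM against 4.77 to 5.78 CPM in the other 3), Lifr (94.6 CPM against 58.5 to 61.2 CPM in the other 3), Mmp2 (1226 CPM against 567 to 623 CPM in the other 3), Pcolce2 (198 CPM against 147 to 150.4 CPM in the other 3) and Timp2 (813 CPM against 383 to 442 CPM in the other 3). MI replicate 2 was the lowest library of its group for Mcm3 (29.4 CPM against 65.1 to 68.9 CPM in the other 3), Mcm5 (26.7 CPM against 75.5 to 78.6 CPM in the other 3) and Pdia3 (499 CPM against 603 to 621 CPM in the other 3). MI replicate 3 was the highest library of its group for Fn1 (5040.2 CPM against 2644 to 2880.2 CPM in the other 3) and Isg15 (7.99 CPM against 2.54 to 2.76 CPM in the other 3). MI replicate 4 was the highest library of its group for Atf3 (76.6 CPM against 29.1 to 37.1 CPM in the other 3).

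The change after MI at P56 minus the change at P1 was past the threshold for 4989 genes, in limma with Benjamini-Hochberg adjustment. Of the genes named, those with a more upward change at P56 had log2 differences between the ages of Cthrc1 7.10, Tnc 6.02, Il6 5.72, Mki67 6.10, Top2a 5.85, Bub1 5.50, Cdk1 5.07, Mcm5 3.87, Col1a1 2.08 and Acta2 4.34. Those with a more downward change were at Myh6 -3.69, Ckmt2 -3.34, Ttn -3.59, Mb -3.41, Myl2 -3.38, Xirp2 -3.46, Smoc2 -0.82 and Gsn -1.42. Age, digestion and pooling differ together between these groups and cannot be told apart.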

How the results depend on the processing

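Of the 162 named genes called between MI and sham, 158 kept their direction and their side of the threshold under each of the 22 alternatives with the same threshold that gave them a value; of all 167 named genes 156 had one at the 5 CPM filter, 166 with only the P56 libraries and 165 without the libraries of over 1% 18S. The exceptions were Cxcl14, Isg15, Wnt11 and Tyrobp. No call between MI and sham was called in the opposite direction under any alternative. Adding a fold of at least 2 to the threshold left 1129 genes higher and 745 lower after MI, and 1019 and 914 for the change between ages. Array weights raised the counts for the change between ages to 3849 more upward and 3739 more downward; the cause was not tested. Leaving out every fibroblast library of over 1% 18S, an alternative chosen after seeing the data, brought them to 750 and 373, with 1 P1 MI library left. Without 1 P56 library at a time, 3371 to 4127 genes were higher and 3171 to 4339 lower after MI, and 2100 to 3109 and 1864 to 3176 for the change between ages; P1 libraries were not left out singly. With the replicate number as a block, 3767 genes were higher and 3820 lower after MI, and 2411 and 2230 for the change between ages. Deviations of the libraries with the same number correlated at 0.0599, -0.203, 0.0235 and -0.00614, so the numbers were not taken as pairs. Quantile normalization gave 3689 higher and 4512 lower, edgeR 4115 and 4024, and DESeq2 4220 and 4250. The Ptprc difference, not called, ranged from -0.0507 (without sham replicate 2) to 0.409 (without sham replicate 3) when 1 P56 library was left out, and was also below 0 without MI replicate 3 (-0.0259). The difference of Gsn between the ages did not pass with quantile normalization (adjusted p = 0.074). Depth limits genes near 3 reads, 0.108 to 0.194 CPM.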

Other observations

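Several genes outside the lists rose far and had a higher level in MI fibroblasts than in MI leukocytes; they were chosen after their values were seen. Ddah1, an enzyme that degrades inhibitors of nitric oxide synthase, was at 0.905, 1.65, 0.863 and 1.11 CPM in the sham libraries and 38.5, 25.9, 88.0 and 38.8 CPM in the MI libraries (log2 difference 4.76, SE 0.25, adjusted p = 1.4e-09, limma). Cemip, a hyaluronan-binding protein involved in hyaluronan breakdown, rose from 0.192 ± 0.0950 CPM to 20.1 ± 16.4 CPM, and Mmrn1 (multimerin 1) from 1.25 ± 0.647 CPM to 50.1 ± 37.0 CPM. H19, an imprinted long noncoding RNA of fetal tissues, was at 1.16, 1.17, 0.748 and 1.63 CPM in the sham libraries and 35.8, 21.9, 88.9 and 29.2 CPM in the MI libraries (log2 difference 4.54, SE 0.30, adjusted p = 1.2e-08), with no overlap, and at 1844 ± 101 CPM in P1 sham and 1361 ± 293 CPM in P1 MI.

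Histone genes of the replication-dependent clusters followed the division genes: 42 of 48 rose and 1 fell, with a median log2 difference of 2.38 at P56 and 0.01 at P1. Their summed level was 270.3, 286, 307 and 281 CPM in the sham libraries and 989, 512, 1165 and 789 CPM in the MI libraries, so every MI library was above every sham library. Of 73 genes of cytosolic ribosomal proteins, 45 rose and 1 fell, with a median of 0.58 at P56 and 0.07 at P1, and their sum went from 2198 to 2693 CPM in sham to 3479 to 4513 CPM after MI.

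Several noncoding classes held more falls than rises. Of 400 antisense genes 22 rose and 178 fell, of 344 long intergenic RNAs 29 rose and 146 fell, and of 364 genes of the annotation class TEC, which awaits experimental tests, 9 rose and 211 fell, against 3474 and 3149 of 13284 protein-coding genes. Their median levels in sham were 1.94, 2.63 and 3.98 CPM. Processed pseudogenes went the other way, with 285 of 739 higher and 80 lower, and they may share reads with their parent genes. Of 10 small Cajal body RNAs 8 fell and 0 rose. Of 83 small nucleolar RNAs 17 rose and 2 fell, and of 17 small nuclear RNAs 3 rose and 2 fell. Over all tested genes 24.8% rose and 25.2% fell, so neither class had a larger share of rises. The summed small nucleolar RNAs overlapped between the groups, at 659 to 1106 CPM in sham and 450 to 1399 CPM after MI.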
